A study of Mus musculus with 6 samples.

Results

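Messenger RNA levels of 8 genes of the Hippo and Yap pathway (Yap1, Ctgf, Cyr61, Nuak2, Axl, Wwc1, Amotl2 and Ankrd1) were examined in colonies grown from sorted adult mouse pancreatic cells. The genes were selected by symbol as known members of the pathway, with earlier results of these data in view, and all 8 had a value, among the 11164 genes of the deposited table. Libraries came from 3 groups of 2, numbered 1 and 3 in each: colonies with a pool of 5 lentiviral shRNA clones against Glis3 (shGlis3), colonies with a pool of 5 clones against CD133, the product of Prom1 (shCD133), and colonies with 1 shRNA that has no mammalian target (shControl). The cells of all groups, from C57Bl/6 (B6) mice, had high CD133 and low CD71 surface staining. The mice were 2 to 4 months old, and the cells were infected overnight, kept under puromycin and collected after 3 weeks in methylcellulose with Matrigel, conditioned medium, serum, activin B, RSPO1, exendin-4 and nicotinamide. Every group therefore carried a lentivirus and was under drug selection, and the control differs from both knockdowns in holding 1 clone and not 5. The cells were sorted on the protein that one of the pools targets. Per its title, the study is about an axis of Glis3, CD133 and Wnt signals in self-renewal, and the comparisons here ask which genes of the Hippo and Yap pathway differ when Glis3 or CD133 is lowered.

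In the Hippo pathway, the kinases Mst1 and Mst2 (genes Stk4 and Stk3) activate Lats1 and Lats2, which phosphorylate Yap and its relative Taz and hold them in the cytoplasm. When the kinases are less active, as in cells that are spread, stretched or at low density, Yap and Taz enter the nucleus, bind the Tead DNA-binding factors and raise transcription of genes for matricellular proteins, receptors and the pathway's own inhibitors. In the pancreas Yap is abundant in the embryonic progenitors and in the duct and is lost from the endocrine lineage. Because the control acts on the Yap protein, the RNA of Yap1 itself need not follow its activity, and RNA libraries do not measure phosphorylation or location.

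The 8 genes ran over a wide range of levels. RPKM (reads per kilobase of transcript and megaread of library) is a value per length, so levels can be set beside each other. In shControl colonies the order of mean levels was Cyr61, Wwc1, Ctgf, Ankrd1, Amotl2, Nuak2, Yap1 and Axl, with Cyr61 at percentile 98.6 of all genes of the table, Yap1 at 73.0 and Axl at 9.2. No 2 neighbours in that order overlapped between their control libraries, although Ankrd1 and Amotl2 came close, at 55.0 RPKM for the lower Ankrd1 library and 54.9 for the higher Amotl2 library. In shGlis3 colonies Ctgf stood above Wwc1 and Yap1 above Nuak2. In shCD133 colonies the libraries of Ctgf overlapped both those of Wwc1 and those of Ankrd1.

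**Figure D1:**
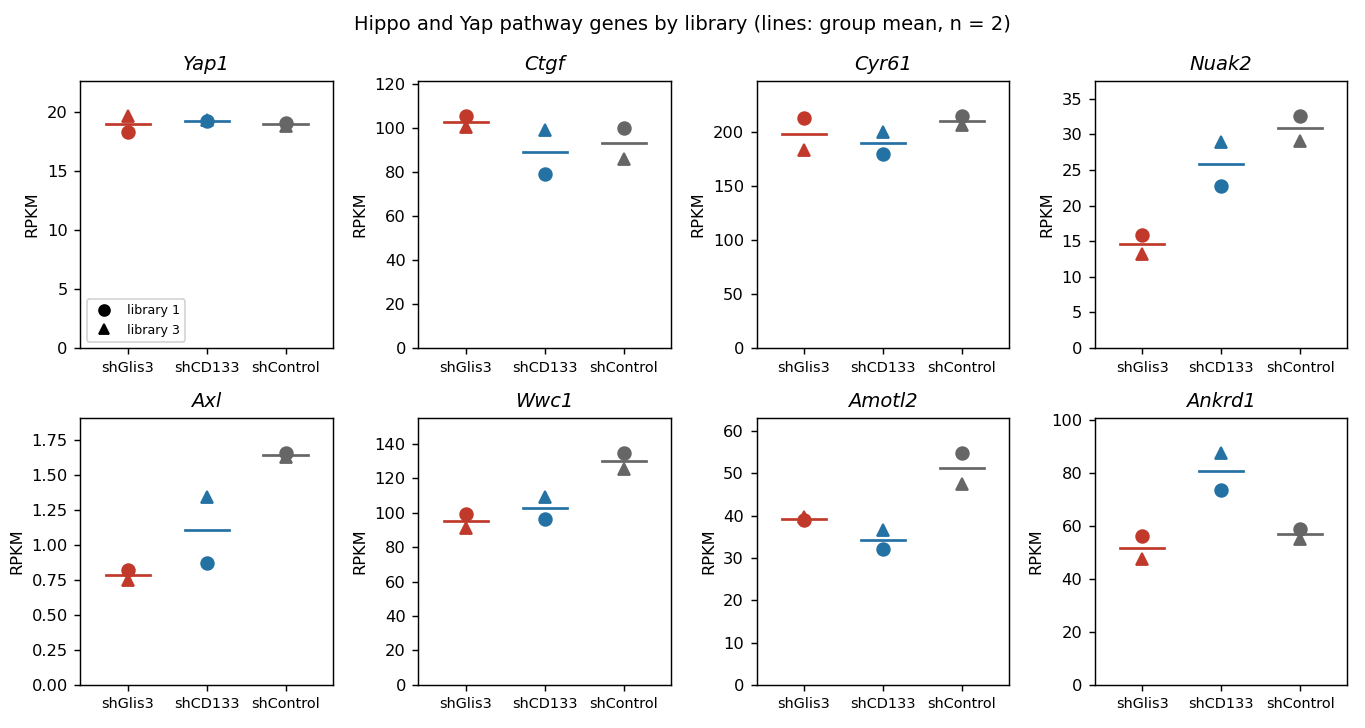
RPKM (vertical axes, from 0) of the 8 genes in each library, by group, with circles for library 1, triangles for library 3 and lines for group means (n = 2). Nuak2, Axl, Wwc1 and Amotl2 lie below both controls in both knockdown groups, Ankrd1 lies above both controls in shCD133 colonies, and Yap1 stays between 18.3 and 19.7 RPKM.

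Each pool lowered its own target. Glis3 stood at 12.6 ± 0.955 RPKM in shGlis3 colonies, 24.5 ± 0.396 in shCD133 colonies and 25.1 ± 1.29 in shControl colonies, and Prom1 at 211 ± 13.7, 92.0 ± 5.64 and 197 ± 8.61 RPKM in the same groups (SD, n = 2 each). The RPKM of all genes summed to 267688 to 279122 in a library, and the steps of low values gave estimated depths of 25.8 to 29.2 megareads. Of 12 ductal and progenitor-like markers 11 were measured, with summed levels of 6620 to 7825 RPKM in shGlis3 libraries, 6276 to 6797 in shCD133 libraries and 8665 to 9121 in shControl libraries. A large part of that sum was Spp1 (osteopontin), which had 5212 and 4168 RPKM in shGlis3 libraries, 3127 and 4202 in shCD133 libraries, and 6490 and 6733 in shControl libraries. In shCD133 colonies 2 ductal markers fell, Spp1 (log2 fold change -0.87, adjusted p = 0.029) and the targeted Prom1, and 3 rose: the keratin genes Krt19 (0.66, adjusted p = 0.0312) and Krt8 (0.61, adjusted p = 0.0451) and the progenitor factor gene Sox9 (0.41, adjusted p = 0.0151). In shGlis3 colonies 1 rose, the pancreatic factor gene Pdx1 (0.28, adjusted p = 0.0261), a call lost under median centring, and none of the 11 fell. Without control library 1 or 3 none of these markers passed in either comparison, and their part in the results that follow was not tested. No acinar (0 of 7) or endothelial (0 of 4) marker had a value, and of the other cell types Cd68 (1 of 4 immune), Fn1 (1 of 9 mesenchymal) and 3 of 6 endocrine markers did. The summed endocrine markers lay between 5.83 and 12.2 RPKM in shGlis3 libraries, 0.860 and 2.61 in shCD133 libraries and 3.29 and 8.67 in shControl libraries. Nothing in the labels ties the paired libraries of a group to different mice or wells, and p-values therefore speak of library-to-library spread, which may be technical.

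Promoter sequence is shown for 3 Tead target genes that differed in their response, with Cyr61 past the test in neither knockdown, Amotl2 lower in both and Ankrd1 higher in shCD133 colonies. Each sequence is the 300 bases of the RefSeq table (GRCm38.p6) from 250 before to 50 after the annotated start, on the gene's strand, with the Tead core motif in capitals as GGAATG or its reverse complement CATTCC.
Cyr61, chr3:145649936-145650235, minus strand: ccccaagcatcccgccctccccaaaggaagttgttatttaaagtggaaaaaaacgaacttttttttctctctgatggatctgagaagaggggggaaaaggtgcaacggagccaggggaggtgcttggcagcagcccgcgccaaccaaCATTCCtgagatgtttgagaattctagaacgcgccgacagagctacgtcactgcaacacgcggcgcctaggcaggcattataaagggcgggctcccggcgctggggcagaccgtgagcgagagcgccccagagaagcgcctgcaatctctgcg
Amotl2, chr9:102717554-102717853, plus strand: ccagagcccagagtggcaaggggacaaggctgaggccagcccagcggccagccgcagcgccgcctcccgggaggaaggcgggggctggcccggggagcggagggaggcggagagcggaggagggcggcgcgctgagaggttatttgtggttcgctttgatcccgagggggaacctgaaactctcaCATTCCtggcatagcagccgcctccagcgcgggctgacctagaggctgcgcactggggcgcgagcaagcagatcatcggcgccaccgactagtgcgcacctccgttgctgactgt
Ankrd1, chr19:36119795-36120094, minus strand: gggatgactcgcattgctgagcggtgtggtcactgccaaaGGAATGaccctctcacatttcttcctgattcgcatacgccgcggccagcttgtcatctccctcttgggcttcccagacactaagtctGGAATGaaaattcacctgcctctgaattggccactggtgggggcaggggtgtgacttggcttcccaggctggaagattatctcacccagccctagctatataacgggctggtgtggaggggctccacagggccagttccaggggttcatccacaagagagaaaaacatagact

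The motif began 103 bases before the start in Cyr61, 65 before it in Amotl2, and 210 and 123 before it in Ankrd1. These distances hold for the RefSeq start only. The Amotl2 and Ankrd1 windows lie wholly inside the gene coordinates given for these genes below, which begin further upstream. Of the other members, Yap1 (chromosome 9, 8004547 to 8004846, minus strand) held it 141 bases before the start and Axl (chromosome 7, 25788684 to 25788983, minus strand) 233 bases before, while the window of Wwc1 (chromosome 11, 35980478 to 35980777, minus strand) held no match. The promoter table matched 6 of the 8 members, without Ctgf and Nuak2. The motif was in 5 of these 6 windows, in 7 of the 15 matched genes of the Yap and Taz target signature described below, and in 13.9% of the 8764 tested genes with a promoter in the table. The first 2 counts are not separate, as Amotl2, Cyr61, Ankrd1 and Axl are in both. The other signature genes with a match were Lats2, Crim1 and Ptpn14. Amotl2, with a match, and Wwc1, the only one of these 6 windows without it, both fell in the knockdowns. Whether the response goes with a match was not tested, and a match is a run of letters, not a bound site.

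**Figure D2:**
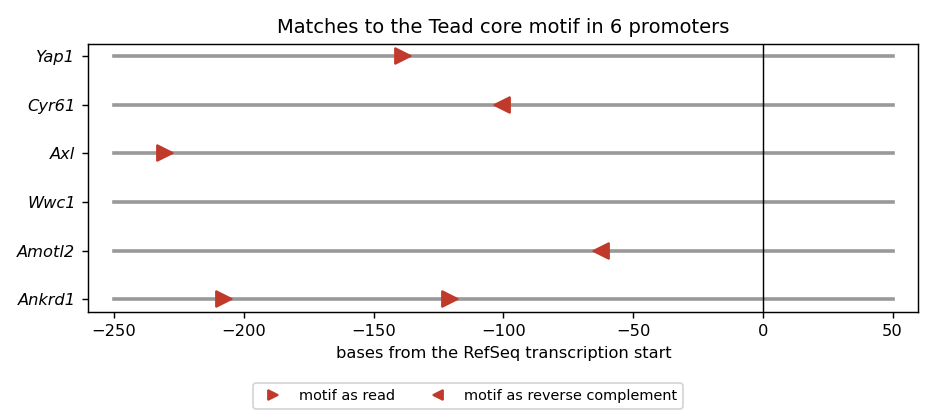
Position of each match to the Tead core motif (triangles, pointing right as read and left for the reverse complement, drawn near the middle of the match) in bases from the RefSeq transcription start for the 6 members with a promoter sequence. Ankrd1 has 2 matches, at 210 and 123 bases before the start, and Wwc1 has none.

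Yap1, which encodes the transcriptional coactivator at the end of the kinase cascade (ENSMUSG00000053110.13, GRCm38 chromosome 9, 7931999 to 8004596, minus strand), had nearly the same level in every library. It was at 18.3 and 19.7 RPKM in shGlis3 libraries 1 and 3, 19.2 and 19.3 in shCD133 libraries and 19.1 and 18.8 in shControl libraries. The groups overlapped for shGlis3, and the shCD133 values were above the controls by less than 0.5 RPKM. On the log2(RPKM + 1) scale the change was 0.00 in shGlis3 colonies (95% confidence interval -0.13 to 0.13, adjusted p = 0.98) and 0.02 in shCD133 colonies (interval -0.11 to 0.15, adjusted p = 0.828). Its exons overlap those of Gm20416 on the opposite strand over 116 bases, and the sources used here do not say whether reads were counted by strand.

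Wwc1 and Amotl2, which act upstream of Yap or bind it, were lower in both knockdowns. Wwc1 encodes Kibra, a scaffold that promotes Lats activation and is also known as a Yap target (ENSMUSG00000018849.6, chromosome 11, 35838400 to 35980527, minus strand). It had 99.1 and 91.3 RPKM in shGlis3 libraries, 96.6 and 109 in shCD133 libraries, and 135 and 125 in shControl libraries. All 4 knockdown libraries lay below both controls. The mean was 73.1% of control in shGlis3 colonies (log2 fold change -0.45, SE 0.081, adjusted p = 0.0198) and 79.1% in shCD133 colonies (log2 fold change -0.34, SE 0.081, adjusted p = 0.044). The fall in shGlis3 colonies lost its call without control library 1 (-0.39, adjusted p = 0.113), without control library 3 (-0.50, adjusted p = 0.0776) and without shGlis3 library 3 (-0.39, adjusted p = 0.0794). The fall in shCD133 colonies lost it without control library 1 (-0.28, adjusted p = 0.182), control library 3 (-0.39, adjusted p = 0.106), shCD133 library 1 (-0.25, adjusted p = 0.234) and shCD133 library 3 (-0.43, adjusted p = 0.0577), as well as under quantile normalization (-0.32, adjusted p = 0.0669) and with no variance trend (adjusted p = 0.0525).

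Amotl2 encodes an angiomotin-like junction protein that binds Yap and holds it outside the nucleus, and it is itself a Yap target (ENSMUSG00000032531.15, chromosome 9, 102716672 to 102733418, plus strand). It had 39.0 and 39.6 RPKM in shGlis3 libraries, 32.1 and 36.5 in shCD133 libraries, and 54.9 and 47.6 in shControl libraries. The knockdown libraries again lay below both controls, and the shCD133 libraries below the shGlis3 libraries. The mean was 76.7% of control in shGlis3 colonies (log2 fold change -0.37, SE 0.088, adjusted p = 0.0414) and 67.0% in shCD133 colonies (log2 fold change -0.56, SE 0.088, adjusted p = 0.019). The call in shGlis3 colonies was lost without control library 1 (-0.27, adjusted p = 0.162), control library 3 (-0.47, adjusted p = 0.0735), shGlis3 library 1 (-0.36, adjusted p = 0.0922) or shGlis3 library 3 (-0.38, adjusted p = 0.108), under quantile normalization (-0.39, adjusted p = 0.0534) and with no variance trend (adjusted p = 0.0515). In shCD133 colonies it was lost without control library 1 (-0.46, adjusted p = 0.0855), control library 3 (-0.67, adjusted p = 0.0668) or shCD133 library 1 (-0.47, adjusted p = 0.11). The 2 comparisons use the same control libraries, so a fall in both is not a repeat of one by the other.

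Among the Yap targets, Nuak2 and Axl fell in shGlis3 colonies to similar shares of their control levels. Nuak2 encodes an AMPK-related kinase that feeds back on Yap activity (ENSMUSG00000009772.15, chromosome 1, 132316126 to 132333488, plus strand). It had 15.9 and 13.3 RPKM in shGlis3 libraries, 22.7 and 29.0 in shCD133 libraries, and 32.6 and 29.1 in shControl libraries. The shGlis3 libraries were the lowest 2 of the 6, while shCD133 library 3 lay just under the lower control. The mean was 47.2% of control in shGlis3 colonies (log2 fold change -1.04, SE 0.13, adjusted p = 0.00874) and 83.8% in shCD133 colonies (log2 fold change -0.25, interval -0.56 to 0.06, adjusted p = 0.238). The call in shGlis3 colonies was kept without either shGlis3 library and lost without control library 1 (-0.96, adjusted p = 0.0788) or control library 3 (-1.12, adjusted p = 0.0616).

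Axl, the receptor tyrosine kinase for the ligand Gas6 (ENSMUSG00000002602.16, chromosome 7, 25757273 to 25788705, minus strand), was near the bottom of the measured range. It had 0.82 and 0.75 RPKM in shGlis3 libraries, 0.87 and 1.34 in shCD133 libraries, and 1.66 and 1.63 in shControl libraries. At the estimated depths and the length of its longest GENCODE transcript these values stand for about 91 to 203 reads per library. The mean was 47.7% of control in shGlis3 colonies (log2 fold change -0.57, SE 0.12, adjusted p = 0.0305) and 67.2% in shCD133 colonies (log2 fold change -0.34, interval -0.63 to -0.05, adjusted p = 0.112). At such low values the size depends on the pseudocount, and the fall in shGlis3 colonies was -0.98 with 0.1 added and -0.20 with 5 added (Nuak2 had -1.08 and -0.88). Axl passed the minimum mean of 1 RPKM, at 1.18, through its control level, and without that minimum its adjusted p was 0.0311. The call was lost without control library 1 (-0.56, adjusted p = 0.14), control library 3 (-0.58, adjusted p = 0.128), shGlis3 library 1 (-0.60, adjusted p = 0.0548) or shGlis3 library 3 (-0.54, adjusted p = 0.1).

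Ctgf and Cyr61, the secreted CCN-family matricellular proteins most often read as Yap targets, did not pass the test in either knockdown. Ctgf (symbol Ccn2 in the annotation, ENSMUSG00000019997.11, chromosome 10, 24595442 to 24598683, plus strand) had 105 and 100.3 RPKM in shGlis3 libraries, 79.2 and 99.0 in shCD133 libraries, and 99.95 and 86.0 in shControl libraries. The shGlis3 libraries were the highest 2, and of the shCD133 libraries library 1 lay below both controls and library 3 between them. Its log2 fold changes were 0.15 (interval -0.13 to 0.43, adjusted p = 0.432) in shGlis3 colonies and -0.07 (interval -0.34 to 0.21, adjusted p = 0.746) in shCD133 colonies. Exons of Ctgf overlap those of Gm15270 on the opposite strand over 636 bases. Cyr61 (Ccn1, ENSMUSG00000028195.4, chromosome 3, 145646976 to 145649981, minus strand) had 213 and 183 RPKM in shGlis3 libraries, 179.7 and 199.6 in shCD133 libraries, and 215 and 206 in shControl libraries. The spread between the shGlis3 libraries was wider than the difference between group means. Its log2 fold changes were -0.09 (interval -0.31 to 0.12, adjusted p = 0.534) in shGlis3 colonies and -0.15 (interval -0.37 to 0.07, adjusted p = 0.31) in shCD133 colonies.

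Ankrd1 was the member that rose, in shCD133 colonies. It encodes a nuclear ankyrin-repeat protein induced by stretch in muscle and a direct Yap and Tead target (ENSMUSG00000024803.9, chromosome 19, 36111961 to 36120099, minus strand). It had 56.1 and 47.7 RPKM in shGlis3 libraries, 73.9 and 87.8 in shCD133 libraries, and 59.1 and 55.0 in shControl libraries. Both shCD133 libraries lay above all others, and the shGlis3 libraries overlapped the controls. The mean was 141.7% of control in shCD133 colonies (log2 fold change 0.49, SE 0.107, adjusted p = 0.0344) and 91.0% in shGlis3 colonies (log2 fold change -0.14, interval -0.39 to 0.12, adjusted p = 0.425). The rise lost its call without control library 1 (0.54, adjusted p = 0.127), control library 3 (0.44, adjusted p = 0.148), shCD133 library 1 (0.61, adjusted p = 0.0942) or shCD133 library 3 (0.37, adjusted p = 0.123), and under quantile normalization (0.46, adjusted p = 0.051).

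Nuak2, Wwc1, Amotl2 and the low Axl, 4 of the 8 genes, fell and none rose in shGlis3 colonies, while 2 fell and 1 rose in shCD133 colonies. Over all 10829 genes tested, 4.53% were called lower and 8.39% higher in shGlis3 colonies, and 3.64% lower and 8.16% higher in shCD133 colonies. Counting either direction, the calls made up 12.9% and 11.8% of all genes in shGlis3 and shCD133 colonies. Both shGlis3 libraries lay below both controls for 4 of the 8 genes and for 21.1% of all genes tested, and above both for 1 (Ctgf) and 38.5%. Both shCD133 libraries lay below both controls for 5 of the 8 genes and 22.1% of all genes, and above both for 2 (Yap1 and Ankrd1) and 40.3%. The median log2 fold change of the 8 genes was -0.25 in shGlis3 colonies and -0.20 in shCD133 colonies, against 0.04 in each comparison for all genes. Because the 8 genes were chosen with earlier results of these data in view, these counts and medians do not measure an excess over all genes. Fn1 (fibronectin), the only 1 of 9 mesenchymal markers with a value, moved the same way as the genes that fell. It had 53.5 and 56.3 RPKM in shGlis3 libraries, 84.7 and 87.8 in shCD133 libraries and 112.3 and 111.9 in shControl libraries. The part of Fn1 in these results was not tested. In bulk libraries, fewer cells of a type and less RNA per cell cannot be told apart.

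**Figure D3:**
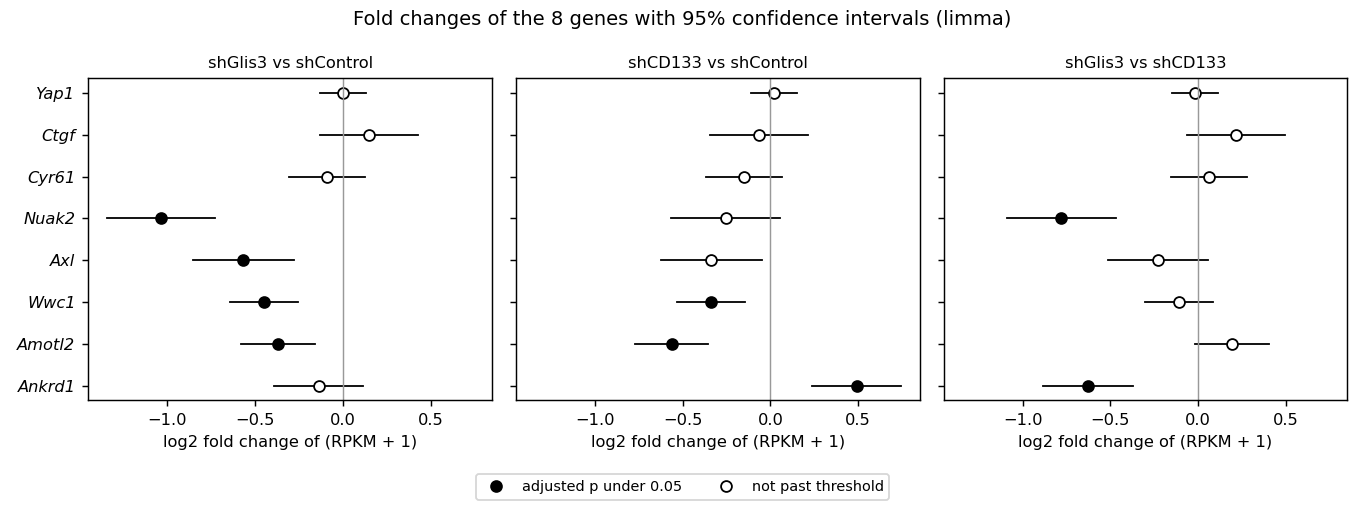
Log2 fold change of (RPKM + 1) with the moderated 95% confidence interval (horizontal axes) for the 8 genes in the 3 comparisons, filled where the limma adjusted p was under 0.05. Nuak2 reaches -1.04 in shGlis3 colonies, and Ankrd1 is at 0.49 in shCD133 colonies and -0.14 in shGlis3 colonies.

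Set against each other, the knockdowns differed in Nuak2 and Ankrd1. Nuak2 was lower in shGlis3 than in shCD133 colonies (log2 fold change -0.78, SE 0.13, adjusted p = 0.0322), as was Ankrd1 (-0.63, SE 0.107, adjusted p = 0.0346). In this comparison 4.06% of all genes were called, 2.46% lower and 1.61% higher. Both shGlis3 libraries lay below both shCD133 libraries for 3 of the 8 genes (Nuak2, Axl and Ankrd1) and 26.8% of all genes, and above both for 2 (Ctgf and Amotl2) and 27.9%. Both calls were kept without shGlis3 library 1 and lost without each other library: without control libraries 1 and 3 Nuak2 had adjusted p-values of 0.0796 and 0.0792 and Ankrd1 of 0.0818 and 0.0821, with the fold changes as they were. Without shGlis3 library 3 the values were -0.66 for Nuak2 (adjusted p = 0.103) and -0.51 for Ankrd1 (adjusted p = 0.109), without shCD133 library 1 they were -0.95 (adjusted p = 0.0544) and -0.75 (adjusted p = 0.0658), and without shCD133 library 3 they were -0.61 (adjusted p = 0.0955) and -0.50 (adjusted p = 0.115). The other 6 genes did not pass: Amotl2 had a difference of 0.19 (interval -0.02 to 0.40), Ctgf 0.21 (interval -0.07 to 0.49), Axl -0.23 (interval -0.52 to 0.06), Wwc1 -0.11 (interval -0.30 to 0.08), Cyr61 0.06 (interval -0.16 to 0.28) and Yap1 -0.02 (interval -0.15 to 0.11).

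The genes of the kinase cassette and the Yap and Tead factors gave few calls. Of 17 genes of the kinase cassette and its upstream regulators that were tested, Wwc1 was the 1 that fell in each knockdown, none rose and 16 missed the threshold, and the list's median fold change on the log2 scale was 0.04 in shGlis3 colonies (-0.02 under median centring) and -0.02 in shCD133 colonies. In shGlis3 colonies 5 of the 17 had an unadjusted limma p under 0.05, as had 3305 of the 10829 genes tested. At the adjusted threshold 12.9% of all genes passed in shGlis3 colonies and 11.8% in shCD133 colonies. The core kinases, named here for their role, had mean levels of 24.9 RPKM for Lats1 in shGlis3 colonies, 23.9 in shCD133 colonies and 24.7 in shControl colonies, and of 9.66, 9.16 and 8.38 RPKM for Lats2 in the same order, with Lats2 log2 fold changes of 0.19 in shGlis3 (adjusted p = 0.0946) and 0.12 in shCD133 colonies (adjusted p = 0.254). Among the 7 measured Yap, Taz and Tead factors none passed in shGlis3 colonies by limma, and 2 were among the 3305 genes with an unadjusted p under 0.05. The smallest p-values there belonged to Tead3 (log2 fold change -0.24, adjusted p = 0.112) and Wwtr1, the gene for Taz (0.15, adjusted p = 0.139). In shCD133 colonies Tead4 rose, with 8.90 and 8.74 RPKM against 7.27 in each shControl library (log2 fold change 0.25, SE 0.058, adjusted p = 0.041). The other 6 did not pass, and the Tead4 call was lost under median centring and under quantile normalization. Without control library 1 or 3 no gene of these 2 lists passed in either comparison with control.

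Among the partners that bind Yap in the cytoplasm, Amot (in shGlis3 colonies) and Amotl2 (in both knockdowns) fell, and the 14-3-3 genes Ywhah and Ywhag rose. Their relatives Amotl1, Ywhab, Ywhae, Ywhaq and Ywhaz did not pass in either comparison with control. In shGlis3 colonies Amotl1 stood at 96.7% of control, Ywhab at 100.6%, Ywhae at 95.5%, Ywhaq at 113.1% and Ywhaz at 90.4%. For shCD133 colonies Amotl1 stood at 81.9% of control, Ywhab at 99.7%, Ywhae at 105.4%, Ywhaq at 100.1% and Ywhaz at 99.96%. Both shCD133 libraries of Amotl1 (17.4 and 19.2 RPKM) lay below both controls (23.6 and 21.1 RPKM). Of 17 genes for junction and cytoplasmic partners of Yap, 2 fell and 2 rose in shGlis3 colonies, and 1 fell and 3 rose in shCD133 colonies. Over all genes 4.53% fell and 8.39% rose in shGlis3 colonies, and 3.64% fell and 8.16% rose in shCD133 colonies. Amot, the founding angiomotin gene, had 14.3 and 14.1 RPKM in shGlis3 libraries, 21.2 and 19.9 in shCD133 libraries, and 24.1 and 21.3 in shControl libraries (log2 fold change -0.64 in shGlis3 colonies, SE 0.071, adjusted p = 0.0066). It was lower in shGlis3 than in shCD133 colonies (-0.50, adjusted p = 0.0215). The 14-3-3 genes Ywhah and Ywhag rose in both knockdowns, Ywhah by 0.38 in each (adjusted p = 0.0469 in shGlis3 and 0.0493 in shCD133 colonies) and Ywhag by 0.24 and 0.30 (adjusted p = 0.0469 and 0.0279). Scrib, a basolateral polarity scaffold, rose by 0.22 in shCD133 colonies (adjusted p = 0.0459). All of these rises lost their calls under median centring, where none of the 17 rose and 2 fell in each knockdown. The list's median was -0.03 in shGlis3 and 0.00 in shCD133 colonies, and without control library 1 no gene passed in either comparison, while without control library 3 1 fell in shGlis3 colonies and none passed in shCD133 colonies.

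**Figure D4:**
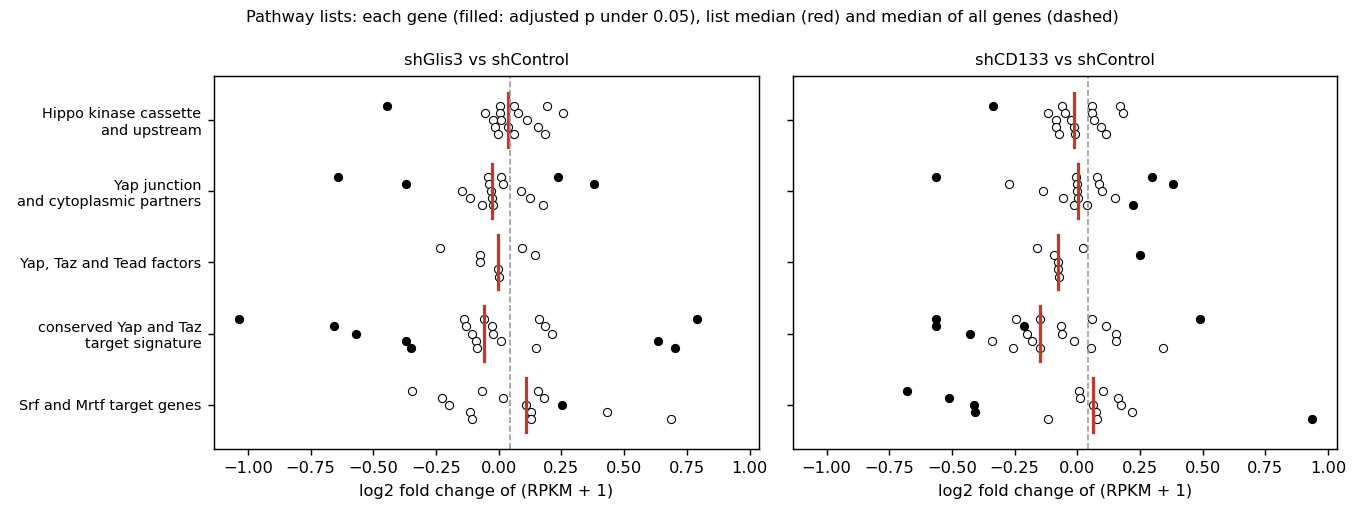
Log2 fold change of (RPKM + 1) of each tested gene (points, filled where the limma adjusted p was under 0.05) in 5 gene lists, with the list median in red and the median of all tested genes dashed. The medians lie between -0.15 and 0.11 in both comparisons, and the called genes of the target signature lie on both sides of 0.

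A published signature of 22 genes induced by Yap and Taz across human tumours, which holds 6 of the 8 genes (Amotl2, Ctgf, Cyr61, Ankrd1, Axl and Nuak2), moved in both directions. Of its 21 measured genes, 3 rose, 5 fell and 13 did not pass in shGlis3 colonies (median -0.06), and 1 rose, 4 fell and 16 did not pass in shCD133 colonies (median -0.15), against 0.04 for all genes in each comparison. Over all genes 8.39% rose and 4.53% fell in shGlis3 colonies, and 8.16% rose and 3.64% fell in shCD133 colonies. The counts include members given above: Nuak2, Axl and Amotl2 fell in shGlis3 colonies, and Amotl2 fell and Ankrd1 rose in shCD133 colonies. In shGlis3 colonies Ccdc80, a matrix protein gene, rose to 4.51 ± 1.20 RPKM, against 2.15 ± 0.134 in shControl colonies (SD, n = 2 each), and its change was 0.79 on the log2 scale (SE 0.142, adjusted p = 0.019). Tgfb2, the ligand TGF-beta 2, rose to 9.64 ± 1.48 RPKM, against 5.51 ± 0.0566 in shControl colonies (0.70, SE 0.098, adjusted p = 0.0105). Gadd45a, a growth arrest gene also induced by p53, fell to 27.8 ± 1.3 RPKM in shGlis3 and 29.97 ± 5.56 in shCD133 colonies, against 44.3 ± 0.962 in shControl colonies (log2 fold changes -0.66 and -0.56, adjusted p = 0.0179 and 0.0293). Fjx1, a secreted homolog of the fly protein four-jointed, which acts in Fat and Dachsous signalling, fell by 0.43 in shCD133 colonies (SE 0.077, adjusted p = 0.0223). Outside the naming rule and picked after their values were seen, Igfbp3 rose by 0.64 and Fjx1 fell by 0.35 in shGlis3 colonies, and Rbms3 fell by 0.21 in shCD133 colonies. Without control library 1 none of the 21 genes passed by limma, although 10 in shGlis3 and 5 in shCD133 colonies had an unadjusted p under 0.05, and without control library 3 none passed, with 9 and 7 under it. Without shGlis3 library 3 the counts in shGlis3 colonies were 2 higher and 1 lower. In shCD133 colonies the calls were also lost without shCD133 library 1 (median -0.09), and not all were kept without shCD133 library 3 (median -0.21). Without shGlis3 library 1 the median in shGlis3 colonies changed sign, to 0.06. Between the knockdowns Tgfb2 was higher in shGlis3 than in shCD133 colonies (log2 fold change 0.95, SE 0.098, adjusted p = 0.0103).

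**Figure D5:**
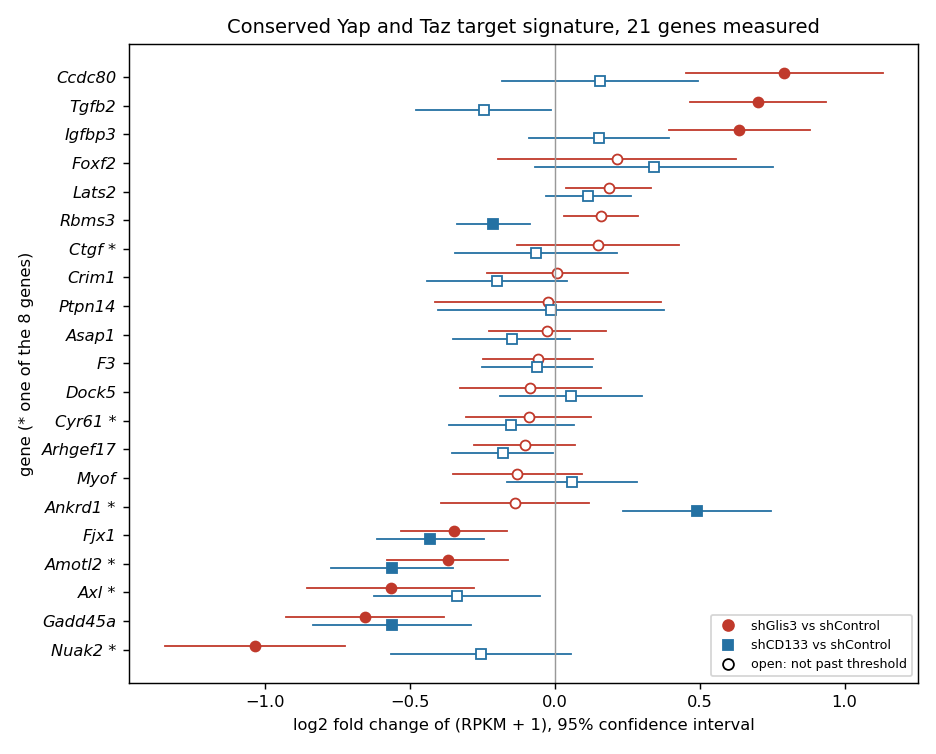
Log2 fold change of (RPKM + 1) with 95% confidence intervals of the 21 measured genes of the Yap and Taz target signature, shGlis3 against shControl (red circles) and shCD133 against shControl (blue squares), filled where the limma adjusted p was under 0.05 and with a star at the 6 genes that are among the 8. Ccdc80, Tgfb2 and Igfbp3 lie at 0.64 to 0.79 in shGlis3 colonies, at the other end from Nuak2 at -1.04.

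Ctgf, Cyr61 and Ankrd1 also answer to serum response factor and its actin-regulated cofactors, so the targets of these factors were set beside them. Of 15 tested Srf and Mrtf target genes 1 rose and none fell in shGlis3 colonies (median 0.11), and 1 rose and 4 fell in shCD133 colonies (median 0.06). Over all genes 8.39% rose and 4.53% fell in shGlis3 colonies, 8.16% and 3.64% in shCD133 colonies, and the median was 0.04 in each. The minimum mean of 1 RPKM left out Cnn1, at 0.175 RPKM in shGlis3, 0.355 in shCD133 and 0.99 in shControl colonies. Without that minimum, of 16 genes 1 rose and 1 fell in shGlis3 colonies, and 1 rose and 5 fell in shCD133 colonies. In shGlis3 colonies Filip1l, a filamin A interacting protein gene, rose by 0.25 (adjusted p = 0.0472). In shCD133 colonies Fhl2, a LIM-domain cofactor, rose to 9.76 ± 1.82 RPKM, against 4.59 ± 0.389 in shControl colonies (SD, n = 2 each), and its change was 0.94 on the log2 scale (SE 0.116, adjusted p = 0.0126). The early response genes Fos and Egr1 fell in shCD133 colonies by 0.68 (adjusted p = 0.0188) and 0.51 (adjusted p = 0.0279), and the actin-binding gene Tagln2 by 0.41 (adjusted p = 0.0209). Under median centring the counts were 0 higher and 1 lower in shGlis3 colonies, with the Filip1l call lost, and under quantile normalization 3 higher and 3 lower in shCD133 colonies. None passed without control library 1 or 3, nor in shCD133 colonies without shCD133 library 1.

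Nuak2 and Axl were also counted together with their relatives. Over all genes 12.9% passed in shGlis3 colonies and 11.8% in shCD133 colonies. Of 13 tested AMPK-related kinase genes, Nuak2 fell and Mark3, a polarity kinase gene, rose in shGlis3 colonies (0.23, adjusted p = 0.0451), and Mark3 alone passed in shCD133 colonies (0.33, adjusted p = 0.0209). Of the 4 tested genes for the Tyro3, Axl and Mertk receptors and their ligands, Axl and the ligand gene Pros1 fell in shGlis3 colonies, Pros1 to 1.31 and 1.03 RPKM against 2.92 and 2.56 in shControl libraries (log2 fold change -0.79, adjusted p = 0.0131), and none passed in shCD133 colonies. These calls were lost without control library 1 or 3. In the CCN family Ctgf and Cyr61 were the 2 of 6 genes with a value.

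Genes whose levels most resembled each member over the 6 libraries were listed by Pearson's r of log2(RPKM + 1) among named genes with an SD of at least 0.2, 1774 or 1775 for each member. For Wwc1 they were Irf2bpl (r = 0.999) and the activin subunit gene Inhbb (r = 0.998), for Nuak2 the adhesion molecule gene Icam1 (r = 0.996) and the cilium regulator gene Foxj1 (r = 0.993), and for Amotl2 the vitamin D receptor gene Vdr (r = 0.993) and Arl4a (r = 0.99). For Axl they were Hpx (r = 0.992) and Tmem173 (r = 0.991), for Ankrd1 the intermediate filament gene Nes (r = 0.987) and Olfm1 (r = 0.985), for Cyr61 Osgin1 (r = 0.958) and Fam151b (r = 0.945), and for Ctgf the receptor gene Fgfr1 (r = 0.947) and Plk3 (r = 0.9). Yap1, whose own SD was 0.0325 on the log2 scale, was nearest to Rnf150 (r = 0.967) and Fzd10 (r = 0.936). These are the highest of many values over 6 libraries that share 3 groups, and they are given as a description.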

How the data were processed

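Poly(A)-selected, stranded RNA libraries were sequenced, per the labels' protocols. The authors deposited 1 table of RPKM values with 2 decimals, and TopHat2, HTSeq, bcl2fastq 2.18.0.12 and the mm10 build are listed, without order, in the submitters' processing notes. The lowest per-gene maximum was 1.00 RPKM. The sources used here give neither the library total behind RPKM nor the annotation or strand setting. Values were analysed as log2(RPKM + 1) for the 10829 genes whose mean reached 1 RPKM, by limma 3.58.1 in R 4.3.3 with 3 group means, a variance trend and empirical Bayes moderation (3 residual and 3.69 prior degrees of freedom). Tests were two-sided, with Benjamini-Hochberg adjustment over all genes tested and a threshold of 0.05. Every adjusted p comes from this model, and fold changes on this scale understate the change of low genes. The fit was tested on simulated data. Depth was estimated from genes with 1 GENCODE M21 basic transcript under 1200 bases and values under 3 RPKM: at the best depth 57.6% to 62.8% of values were whole within 0.15 read, against a median of 29.4% to 30.4% over depths of 3 to 80 megareads. No reads were recovered, so no count model was used. The members and the 15 gene lists were chosen with earlier results of these data known. Named genes are the 8 members, Glis3 and Prom1, up to 4 past the threshold per list and comparison with control (where none passed, the 2 with the smallest p) and the 2 most similar genes per member. The alternatives were other pseudocounts, filters, scalings, variance models, sample subsets and a replicate block. Lists are given as counts and medians, with no set test.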

Additional observations from a re-analysis of the deposited data

How the results depend on the processing

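With 2 libraries a group, calls were often lost when 1 library was left out, including where the fold change hardly moved. Axl in shGlis3 against shControl had log2 fold changes of -0.57 with all libraries, -0.56 without control library 1 and -0.58 without control library 3. Leaving out 1 library in turn moved the count of called members between 0 and 4 in shGlis3 against shControl (4 with all libraries), between 0 and 3 in shCD133 against shControl (3) and between 0 and 2 in shGlis3 against shCD133 (2), and no member passed in any comparison without control library 1 or 3 by limma, although 4, 3 and 3 had an unadjusted p under 0.05 in each case. A lone library is assumed to vary like the other groups. Over all genes the same counts ran between 21 and 1334 (1400 with all libraries), 0 and 1657 (1278), and 25 and 743 (440). The lowest came without control library 1 in the comparisons with control, and in shCD133 colonies also without control library 3, where 2444 and 2672 genes had an unadjusted p under 0.05. The labels do not say that a replicate number marks a shared animal or day, and the data gave no sign of such pairing: deviations of same-numbered libraries correlated at 0.03 for shGlis3 and shCD133, -0.37 for shGlis3 and shControl and -0.43 for shCD133 and shControl. Crossed numbers in the controls would also give negative values, and this was not tested. Genes with the longest transcripts, from 6708 bases, also shifted between libraries. Their median log2 deviation from the mean of all libraries was 0.061 and -0.055 in control libraries 1 and 3. It was -0.062 and 0.082 in shGlis3 libraries 1 and 3, and 0.0089 and -0.017 in shCD133 libraries 1 and 3. The part of this shift in the correlations was not tested. With the replicate block, called members were 1 (Nuak2), 1 (Amotl2) and 0 and called genes 608, 335 and 79 in the 3 comparisons. Against control, the calls of Wwc1 in both knockdowns, of Amotl2 and Axl in shGlis3 colonies and of Ankrd1 in shCD133 colonies were lost under it. Under the block in shGlis3 against shCD133, 2 members had an unadjusted limma p under 0.05, as had 1893 of all genes tested. With the 4 libraries of shGlis3 and shCD133 alone, 0 members and 58 genes passed, and 3 members and 2236 genes had an unadjusted p under 0.05. Quantile normalization left 1 member called in shCD133 against shControl, and a minimum mean of 5 RPKM left 913 genes in shGlis3 against shControl. The cause of these changes was not tested. Small log2 fold changes that were never called changed sign. In shCD133 against shControl, median centring gave -0.0089 for Cd68 and -0.032 for Yap1, and quantile normalization -0.015 and -0.013. In shGlis3 against shControl, Yap1 was -0.055 with centring and -0.024 with quantile normalization. Leaving out 1 library, the range in shCD133 against shControl was -0.092 to 0.18 for Cd68, -0.22 to 0.093 for Ctgf and -0.087 to 0.014 for Glis3. In shGlis3 against shControl it was -0.20 to 0.018 for Cyr61 and -0.045 to 0.051 for Yap1, and in shGlis3 against shCD133 it was -0.0496 to 0.168 for Cyr61 and -0.0663 to 0.0296 for Yap1. Axl had no value at a minimum mean of 5 RPKM. Depths were estimated from RPKM steps, so no counting intervals were given.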
